A study of Mus musculus with 8 samples.

Results

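The genes of sterol and fatty acid synthesis that are known targets or partners of SREBP, the sterol regulatory element-binding proteins, were followed in 8 RNA-seq libraries of mouse cells. They were chosen by name as enzymes and regulators of the pathway, and all 36 were found among the 18473 genes of the deposited table. The libraries form 2 groups, 4 titled EXO and 4 titled LPS. The study's design text describes macrophages exposed to ADSC-Exos, vesicles whose abbreviation usually means exosomes of adipose-derived stem cells, and LPS usually means lipopolysaccharide, a bacterial product that activates macrophages. The labels state neither dose nor time, nor whether EXO cells also received LPS, and they give 1 line, the lung epithelial line MLE-12, for every library.

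Cells make cholesterol from acetyl-CoA through mevalonate, squalene and lanosterol, and fatty acids from acetyl-CoA through malonyl-CoA. SREBP2 (gene Srebf2) mainly drives the sterol genes and SREBP1 (Srebf1) mainly the fatty acid genes. Both are held in the endoplasmic reticulum by SCAP and the INSIG proteins while membrane sterol is plentiful, and are cut free in the Golgi when it falls. In macrophages this programme is tied to activation, since inflammatory signals, interferons and oxysterols all act on it.

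Markers of the cells went against the epithelial label. Of 12 macrophage markers, 11 reached 1 FPKM on average (FPKM counts fragments per kilobase of transcript, scaled to library depth). The summed level of the 12 was 5778 to 7346 FPKM in EXO and 10443 to 21701 FPKM in LPS. Lyz2, at means of 3357 and 9969 FPKM, was the largest part of it. Each of the 12 averaged higher in LPS than in EXO, from 1.03 times for Cd14 to 3.39 times for Adgre1. Of 12 epithelial markers the 2 analysed were near 0, with sums of at most 0.0133 FPKM in EXO and 0.0233 FPKM in LPS, and the 4 analysed of 10 markers of fat and stromal cells summed to at most 0.0985 and 0.371 FPKM, with Col1a1 listed at 0 in every library. Recovered depth ran from 37014760 to 40591444 fragments per library, counted over the genes of the table. In bulk RNA, fewer cells of a type and less RNA per cell cannot be told apart.

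Most of the 36 genes were lower in EXO than in LPS. By limma on log2(FPKM + 1), adjusted over all 9812 genes tested with a threshold of 0.05, 30 fell, 1 rose and 5 were not called. Of all genes tested, 24.7% fell and 33.7% rose. No library is of an untreated group. Fell and rose mean lower and higher in EXO than in LPS, not a change from an untreated state. The median log2 fold change, EXO minus LPS, was -0.81 over the 36 genes and 0.085 over all genes. Every EXO library lay below every LPS library in 23 of the 36 genes, a pattern held by 22.1% of all genes. All 36 passed the filter on low values, with a mean of at least 1 FPKM in each group. The labels do not say that the libraries of a group came from separate cultures, and each p-value is thus set against a spread between libraries that may be technical. Values below are FPKM, given for replicates 1 to 4 in that order, and each ± is the SD of 4 libraries.

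**Figure D1:**
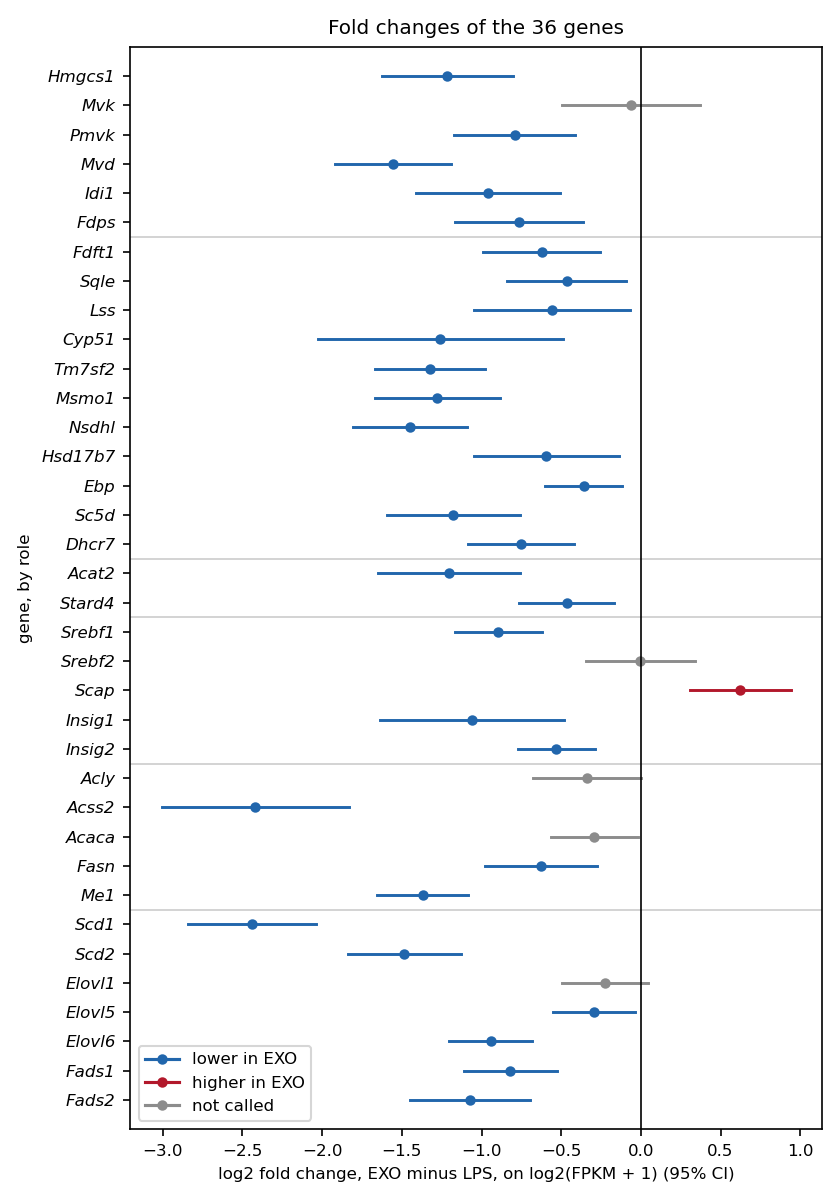
Log2 fold change (EXO minus LPS, from log2(FPKM + 1) values) of each of the 36 genes, with its 95% confidence interval, grouped by role. The points of 30 genes in blue lie below 0 and passed the test, Scap in red lies above 0, and the 5 grey genes were not called.

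The first steps of the sterol route, from HMG-CoA synthesis to farnesyl diphosphate, fell in 5 of 6 genes, with a median log2 fold change of -0.88. Hmgcs1, the enzyme that makes HMG-CoA, stood at 22.3, 18.2, 21.2 and 20.4 in EXO and at 30.5, 49.4, 57.7 and 65.0 in LPS. All EXO libraries were low and close together, and LPS replicate 1 was the nearest to them. Its mean was 2.47 times higher in LPS (limma log2 fold change -1.21 with SE 0.19, adjusted p = 0.000128). Mvd, which decarboxylates mevalonate diphosphate to the first isoprenoid, stood at 16.7, 10.8, 10.9 and 14.3 in EXO and at 30.2, 37.6, 45.7 and 49.6 in LPS. It had the lowest fold change of the arm (limma log2 fold change -1.56 with SE 0.17, adjusted p = 5.49e-06), and the groups were far apart. Idi1, the isomerase that follows it, stood at 12.6, 12.4, 13.0 and 10.6 in EXO and at 14.2, 26.3, 29.5 and 32.7 in LPS. Here LPS replicate 1 lay just above the EXO libraries and the other LPS libraries well above (limma log2 fold change -0.96 with SE 0.21, adjusted p = 0.00169).

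The other members of this arm differed in size. Pmvk, the phosphomevalonate kinase, averaged 7.61 ± 1.08 in EXO and 14.3 ± 4.29 in LPS. Fdps, which joins isoprenoid units into farnesyl diphosphate, had the highest FPKM of the sterol enzymes among the 36 genes, at 110.2 ± 23.0 and 188.9 ± 42.3, and fell (limma adjusted p = 0.00332), although LPS replicate 1, at 126.9, lay within the EXO range. Mvk, the mevalonate kinase, was not called. It stood at 10.3, 6.17, 8.28 and 9.75 in EXO and at 5.67, 8.63, 10.9 and 11.5 in LPS, so that the lowest and the highest of the 8 values were both LPS libraries (log2 fold change -0.062, 95% confidence interval -0.49 to 0.37, limma adjusted p = 0.804).

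From squalene onward, the 11 enzymes listed all fell, with a median log2 fold change of -0.75 and a range from -1.45 to -0.36. Nsdhl, a sterol dehydrogenase that removes the C-4 methyl groups, stood at 7.71, 7.25, 7.49 and 9.51 in EXO and at 15.7, 26.4, 29.4 and 24.6 in LPS. The groups were well separated (limma log2 fold change -1.45 with SE 0.17, adjusted p = 7.91e-06). Tm7sf2, a sterol C-14 reductase, was the scarcest of the arm, at 1.89, 1.71, 1.403 and 1.51 in EXO and 3.86, 5.46, 8.18 and 5.46 in LPS, resting on 77 to 105 recovered fragments per EXO library. Msmo1, the C-4 methylsterol oxidase, stood at 44.5, 33.4, 34.8 and 33.9 in EXO and at 58.9, 91.4, 101.7 and 117.4 in LPS. In both genes every EXO library was below every LPS library, with log2 fold changes of -1.33 (SE 0.16) and -1.28 (SE 0.18). With 0.1 added to FPKM in place of 1, Tm7sf2 was at -1.72 and Nsdhl at -1.55. Which gene is lowest in the arm thus depends on that setting.

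Cyp51, the lanosterol 14-demethylase, was chosen for its library values after they were seen. It stood at 11.5, 10.7, 11.4 and 11.2 in EXO, a coefficient of variation of 3.12%, and at 14.0, 23.9, 34.2 and 53.8 in LPS, where it was 54.1%, the highest of the 36 genes. The groups did not overlap, but the wide LPS spread gave the largest SE of the 36 genes (limma log2 fold change -1.26 with SE 0.34, adjusted p = 0.011). Sc5d, the lathosterol desaturase, averaged 8.12 ± 0.585 in EXO and 20.4 ± 7.01 in LPS. Dhcr7, the last reductase before cholesterol in 1 branch, averaged 4.49 ± 0.777 and 8.34 ± 2.02. Ebp, the sterol isomerase, averaged 21.2 ± 2.01 and 27.4 ± 2.30, the smallest change of the arm.

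The groups overlapped in the other 4 genes of the arm. Fdft1, squalene synthase, averaged 5.16 ± 0.555 in EXO and 8.72 ± 2.50 in LPS. Sqle, the epoxidase that commits squalene to sterols, averaged 22.8 ± 0.675 and 33.0 ± 10.4, with LPS replicate 1 at 23.0, inside the EXO range of 21.8 to 23.3. Lss, which folds the epoxide into lanosterol, averaged 6.86 ± 1.098 and 11.1 ± 4.40, and Hsd17b7, a sterol ketoreductase, 3.59 ± 0.478 and 6.23 ± 2.59. The calls of Sqle (limma adjusted p = 0.0339), Lss (0.0486) and Hsd17b7 (0.0282) were not firm. Leaving out any single EXO library or either of LPS replicates 3 and 4 lost Sqle (0.0546 to 0.0974). Lss was lost without EXO replicate 1, 2 or 3 or LPS replicate 2, 3 or 4 (0.0541 to 0.124), and Hsd17b7 without EXO replicate 1, 2 or 4 or LPS replicate 3 (0.0552 to 0.075). Without LPS replicate 4 their log2 fold changes were -0.29, -0.36 and -0.39.

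Both partners at the edges of the sterol route fell as well. Acat2, the cytosolic thiolase that joins acetyl-CoA units, stood at 11.3, 9.09, 10.7 and 10.6 in EXO and at 15.4, 23.6, 32.8 and 33.9 in LPS (limma log2 fold change -1.20 with SE 0.20, adjusted p = 0.000308). Stard4, a soluble sterol carrier, stood at 9.57, 7.22, 8.13 and 8.19 in EXO and at 9.995, 10.3, 11.9 and 15.5 in LPS (limma log2 fold change -0.46 with SE 0.14, adjusted p = 0.0104). No EXO library reached an LPS library in either gene, by a narrow margin for Stard4, whose call was lost without EXO replicate 2 and LPS replicate 4 together (limma adjusted p = 0.0509).

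**Figure D2:**
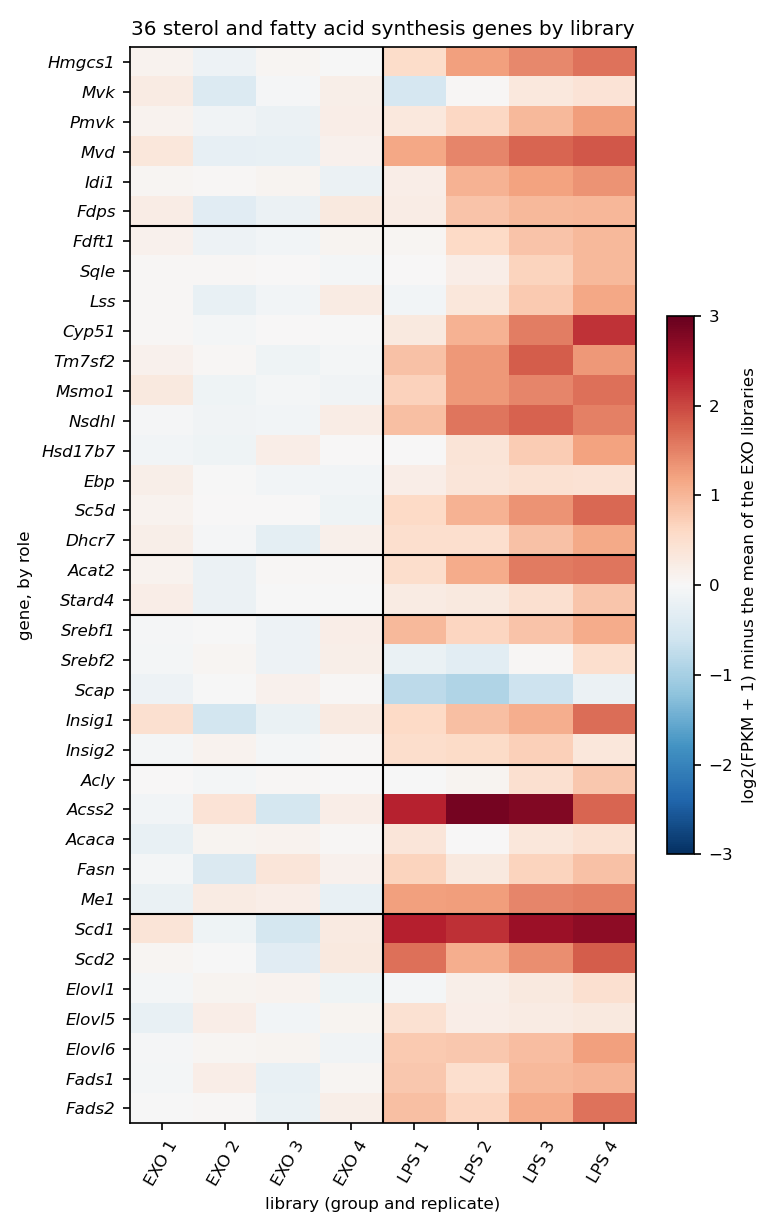
Log2(FPKM + 1) of each gene in each library, minus the mean of the 4 EXO libraries, with genes ordered by role and black lines between roles. LPS columns are red for most genes, palest in LPS replicate 1 for the sterol genes in the upper rows, and blue for Scap.

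The regulators did not move as a block. Srebf1 stood at 8.31, 8.50, 7.64 and 10.1 in EXO and at 17.7, 14.0, 16.4 and 19.8 in LPS, a mean 1.96 times that of EXO (limma log2 fold change -0.89 with SE 0.13, adjusted p = 4.07e-05). Srebf2 stood at 24.4, 26.6, 22.9 and 28.9 in EXO and at 22.1, 20.3, 26.2 and 36.5 in LPS. The LPS libraries spread around the EXO libraries, with replicate 4 highest and replicate 2 lowest of the 8, and no difference was called (log2 fold change -0.0025, 95% confidence interval -0.34 to 0.34, limma adjusted p = 0.991). The ratio of Srebf2 to Srebf1, in FPKM, was 2.87 to 3.12 in EXO and 1.25 to 1.85 in LPS, so that the ranges did not meet.

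Scap, the escort that carries both factors to the Golgi, was the only gene of the 36 that rose. It stood at 6.06, 6.81, 7.55 and 6.98 in EXO and at 3.53, 3.16, 4.10 and 5.96 in LPS (limma log2 fold change 0.62 with SE 0.15, adjusted p = 0.00237). Every EXO library was above every LPS library, with LPS replicate 4 close below EXO replicate 1. Insig1, the retention protein that is itself a sensitive SREBP target, stood at 25.5, 12.1, 15.7 and 22.2 in EXO and at 27.8, 34.5, 39.8 and 59.8 in LPS (limma log2 fold change -1.06 with SE 0.26, adjusted p = 0.00525). Both groups were broad, and the gap between EXO replicate 1 and LPS replicate 1 was small. Insig2, its more constant relative, stood at 3.84, 4.42, 3.90 and 4.17 in EXO and at 6.26, 6.53, 7.32 and 5.38 in LPS (limma log2 fold change -0.53 with SE 0.11, adjusted p = 0.00106). Unlike Insig1, it was lowest in replicate 4 among the LPS libraries.

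**Figure D3:**
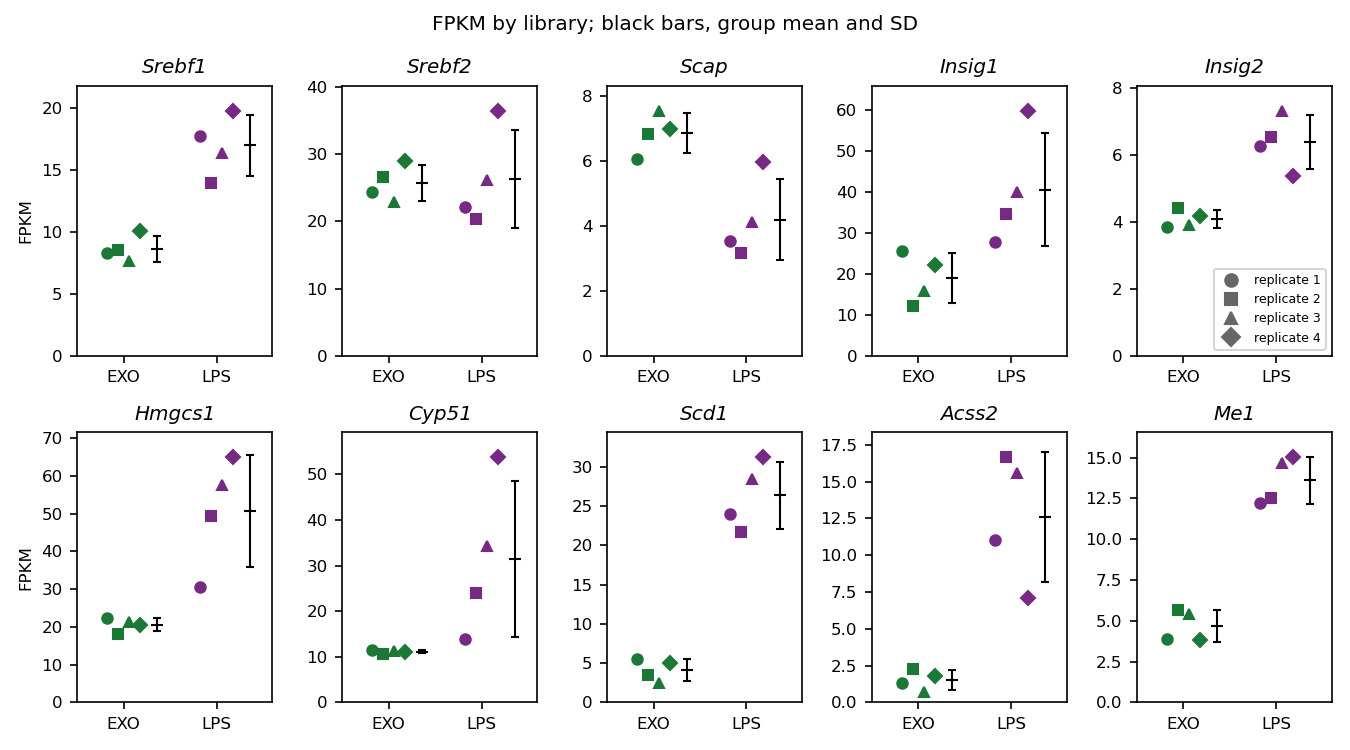
FPKM of 10 genes in each library, EXO in green and LPS in purple, with marker shape for the replicate and black bars for the group mean and SD. Srebf2 overlaps between groups, Scap is higher in EXO, and Cyp51 spreads from 14.0 to 53.8 in LPS while its EXO values lie between 10.7 and 11.5.

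Of 5 genes that supply acetyl-CoA and NADPH or build palmitate, 3 fell and 2 were not called, with log2 fold changes from -2.42 to -0.29. Acss2, which makes acetyl-CoA from acetate, stood at 1.29, 2.24, 0.675 and 1.80 in EXO and at 10.996, 16.7, 15.6 and 7.12 in LPS. Its mean was 8.38 times higher in LPS, the largest ratio of the 36 genes, on 71 to 249 recovered fragments in EXO and 801 to 1831 in LPS (limma log2 fold change -2.42 with SE 0.27, adjusted p = 2.79e-05). LPS replicate 4 was the lowest of its group here, although it was the highest for most sterol genes. Me1, the malic enzyme that yields NADPH, stood at 3.88, 5.64, 5.41 and 3.83 in EXO and at 12.2, 12.5, 14.6 and 15.03 in LPS (limma log2 fold change -1.37 with SE 0.13, adjusted p = 1.74e-06), with a wide gap and little spread.

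The core enzymes of fatty acid synthesis changed little beside these. Fasn, the synthase, stood at 11.96, 9.05, 16.2 and 13.7 in EXO and at 20.3, 15.6, 20.4 and 23.7 in LPS, with a single overlap between EXO replicate 3 and LPS replicate 2 (limma log2 fold change -0.63 with SE 0.16, adjusted p = 0.00478). Acly, which cleaves citrate to acetyl-CoA, stood at 25.9, 24.9, 26.6 and 26.1 in EXO and at 25.5, 27.4, 36.7 and 46.2 in LPS. LPS replicate 1 lay among the EXO libraries, replicate 2 just above them and replicates 3 and 4 well above, and the gene was not called (log2 fold change -0.34, 95% confidence interval -0.68 to 0.0011, limma adjusted p = 0.0805). It was called without LPS replicate 1 (0.0209) or LPS replicate 2 (0.0465). Acaca, the carboxylase that makes malonyl-CoA, averaged 4.91 ± 0.599 and 6.26 ± 0.955 (limma adjusted p = 0.0613), and was called without LPS replicate 2 (0.0191). Under median-of-ratios rescaling of the libraries both were called (0.0224 and 0.0145), and voom on recovered fragment counts called Acaca (0.0415).

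Of 7 elongases and desaturases, 6 fell, with a median log2 fold change of -0.94, and both delta-9 desaturases led them. Scd1, a delta-9 desaturase that makes oleate, stood at 5.50, 3.54, 2.47 and 5.05 in EXO and at 23.9, 21.7, 28.5 and 31.2 in LPS, a mean 6.36 times that of EXO (limma log2 fold change -2.44 with SE 0.19, adjusted p = 4e-07). Scd2, its close relative and the main form in many mouse tissues outside the liver, stood at 81.9, 77.5, 61.3 and 95.6 in EXO and at 247, 166, 208 and 276 in LPS (limma log2 fold change -1.48 with SE 0.17, adjusted p = 6.51e-06). The groups were far apart for both genes. By FPKM the ratio of Scd2 to Scd1 was 14.9 to 24.8 in EXO and 7.29 to 10.3 in LPS, so Scd1 made up the smaller share in EXO. Scd1 and Scd2 are similar in sequence and lie close together on chromosome 19, with 1 coding gene between them. The labels do not record how fragments matching both were counted.

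The desaturases and elongases of long and polyunsaturated fatty acids followed at a smaller size. Fads2, the delta-6 desaturase, stood at 27.2, 28.3, 23.8 and 31.1 in EXO and at 52.6, 43.6, 60.5 and 87.0 in LPS (limma log2 fold change -1.08 with SE 0.18, adjusted p = 0.000154). Its chromosomal neighbour Fads1, the delta-5 desaturase, averaged 25.5 ± 3.37 and 45.9 ± 7.09. Elovl6, which extends palmitate, averaged 4.90 ± 0.338 and 10.4 ± 1.70 (limma log2 fold change -0.94 with SE 0.12, adjusted p = 1.72e-05). In all 3, EXO libraries were below every LPS library. Elovl5, an elongase of polyunsaturated chains, averaged 26.9 ± 3.52 and 33.1 ± 2.77 and overlapped. Its call (limma adjusted p = 0.0462) was lost without EXO replicate 1, 3 or 4 or LPS replicate 1 or 3 (0.06 to 0.146) and with the replicate number as a block (0.0736). Elovl1, an elongase of very long saturated chains, stood at 23.7, 26.2, 26.4 and 22.4 in EXO and at 23.8, 28.1, 30.4 and 34.5 in LPS, with LPS replicate 1 inside the EXO range, and was not called (limma adjusted p = 0.14). It was called without LPS replicate 1 (0.0464) and under median-of-ratios rescaling (0.0328).

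The LPS libraries differed among themselves in many of these genes, a pattern chosen after the values were seen. In 21 of the 36 genes LPS replicate 1 was the lowest and LPS replicate 4 the highest of the LPS libraries, against 20.1% of all genes. In each of the 21, replicate 3 was also above replicate 2, a full order held by 1328 of all 9812 genes tested. That held for 6 of 6 genes from Hmgcs1 to Fdps and for 8 of 11 from Fdft1 to Dhcr7, but for 2 of 5 genes of acetyl-CoA, NADPH and fatty acid synthesis and 2 of 7 elongases and desaturases. The coefficient of variation in FPKM had a median of 27.1% in LPS and 12.5% in EXO over the 36 genes, and of 14.1% and 12.6% over all genes. Cyp51 was 3.85 times higher in LPS replicate 4 than in LPS replicate 1, Hsd17b7 2.67 times, Lss 2.58 times and Scd2 1.12 times.

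Relative to the EXO mean of each gene, and as differences, the median over the 6 early sterol genes was 0.27 on the log2(FPKM + 1) scale in LPS replicate 1, 0.95 in replicate 2, 1.097 in replicate 3 and 1.31 in replicate 4. For the 11 later sterol genes the medians were 0.30, 0.60, 0.87 and 1.21, and for the 7 elongases and desaturases 0.80, 0.65, 0.96 and 1.23. LPS replicate 1 was at or below the highest EXO library in 10 of the 36 genes, a smaller share than the 6784 of all 9812 genes tested. Most of the 36 genes fell and most of all genes did not, so the smaller share follows in part from direction. The summed macrophage markers were highest in LPS replicate 1 and lowest in LPS replicate 4, at 21701, 16754, 14312 and 10443 FPKM, of which Lyz2, the macrophage lysozyme, made up 14935, 10501, 8580 and 5859. Of the 12 markers, 7 had LPS replicate 1 highest and LPS replicate 4 lowest, 1 (Fcgr1, an antibody receptor, at 60.5, 77.7, 63.3 and 83.7 FPKM) had the reverse, and 4 had neither. Of all 9812 genes tested, 1011 had LPS replicate 1 highest and LPS replicate 4 lowest, and 1971 had the reverse. The part of the markers in these results was not tested. With LPS replicates 1 and 4 both left out, a choice made after the values were seen, 29 of the 36 genes fell and 1 rose. In that fit 23.2% of all genes tested fell and 34% rose.

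**Figure D4:**
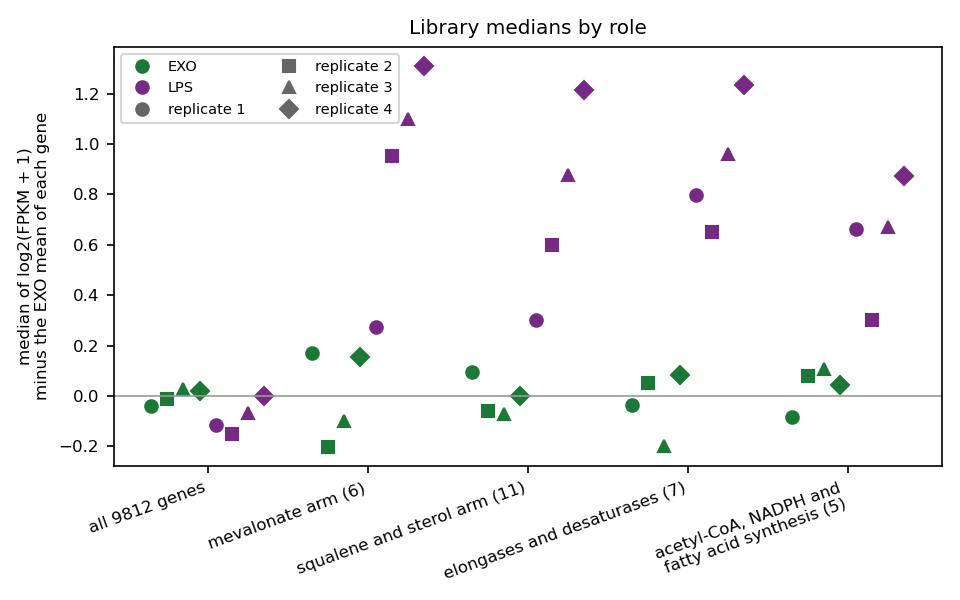
Median over the genes of a role of log2(FPKM + 1) minus the EXO mean of each gene, 1 point per library, EXO in green and LPS in purple, with marker shape for the replicate. For the 6 mevalonate genes LPS replicate 1 lies at 0.27 and LPS replicate 4 at 1.31, while for all genes tested every library lies between -0.15 and 0.03.

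The sequence before the gene starts was described as well. The genes were chosen as known targets or partners of SREBP, so motifs tied to SREBP are not independent of that choice. RefSeq promoter windows on GRCm38.p6, covering 250 bases before and 50 after each start, were found for 29 of the 36 genes, and a gene was counted if any of its windows held the motif on either strand. The CCAAT box (CCAAT), the core bound by the SREBP partner NF-Y, was in 24 of 29 genes (82.8%), against 41.1% of all 27025 genes with a window and 43.2% of the 7915 of them tested here. The Sp1 box (GGGCGG) was in 24 of 29 (82.8%), against 70.1% of tested genes, and the E-box (CACGTG) in 6 of 29 (20.7%), against 12.6%. A sterol regulatory element spelled TCACCCCAC was in 1 of 29, Hmgcs1, against 0.682% of tested genes, and the looser TCACNCCAC, which includes the first, found the same gene, against 1.38%. Only these spellings of the sterol regulatory element were searched, and other forms of it were not counted. All these motif matches are descriptions, not sites shown to be bound.

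The 250 bases before the start are shown for Hmgcs1, which holds the sterol regulatory element in a searched spelling. They are also shown for 4 genes that fell by more than 1 on the log2 scale, and for Mvk, which was not called. The windows are on GRCm38.p6 and come from RefSeq, 5′ to 3′ along the gene, and capitals mark CCAAT or its reverse complement and, in Hmgcs1, the sterol regulatory element.
Hmgcs1 (chr13:119690101-119690350, plus strand): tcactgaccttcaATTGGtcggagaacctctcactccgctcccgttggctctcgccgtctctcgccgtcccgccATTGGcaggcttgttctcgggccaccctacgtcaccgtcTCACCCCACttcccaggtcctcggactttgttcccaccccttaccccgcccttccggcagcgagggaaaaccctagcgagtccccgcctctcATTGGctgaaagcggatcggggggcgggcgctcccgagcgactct
Mvd (chr8:122443423-122443672, minus strand): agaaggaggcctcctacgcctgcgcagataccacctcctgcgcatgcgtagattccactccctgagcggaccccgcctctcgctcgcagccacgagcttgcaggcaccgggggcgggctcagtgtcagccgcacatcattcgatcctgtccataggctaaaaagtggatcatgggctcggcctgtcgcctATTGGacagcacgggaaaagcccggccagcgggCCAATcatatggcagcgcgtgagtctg
Nsdhl (chrX:72918271-72918520, plus strand): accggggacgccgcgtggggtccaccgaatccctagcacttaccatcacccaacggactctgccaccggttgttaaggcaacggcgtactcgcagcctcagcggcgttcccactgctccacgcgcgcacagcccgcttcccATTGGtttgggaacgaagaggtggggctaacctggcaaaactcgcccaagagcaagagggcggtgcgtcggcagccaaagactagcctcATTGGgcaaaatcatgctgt
Cyp51 (chr5:4104698-4104947, minus strand): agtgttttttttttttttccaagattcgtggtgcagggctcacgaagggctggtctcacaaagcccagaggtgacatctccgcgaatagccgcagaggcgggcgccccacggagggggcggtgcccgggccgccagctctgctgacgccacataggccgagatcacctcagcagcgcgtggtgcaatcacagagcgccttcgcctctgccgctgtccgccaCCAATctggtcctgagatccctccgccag
Acss2 (chr2:155517793-155518042, plus strand): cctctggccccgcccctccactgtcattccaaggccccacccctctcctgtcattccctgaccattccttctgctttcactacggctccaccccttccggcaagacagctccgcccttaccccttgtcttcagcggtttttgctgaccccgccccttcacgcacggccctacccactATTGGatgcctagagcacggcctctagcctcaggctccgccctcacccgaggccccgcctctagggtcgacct
Mvk (chr5:114444019-114444268, plus strand): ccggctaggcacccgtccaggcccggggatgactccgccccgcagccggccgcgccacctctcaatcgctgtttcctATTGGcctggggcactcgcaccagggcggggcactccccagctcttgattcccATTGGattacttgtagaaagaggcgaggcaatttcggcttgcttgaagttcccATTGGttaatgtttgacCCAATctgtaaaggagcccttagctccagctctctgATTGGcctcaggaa
Hmgcs1 holds 3 CCAAT matches, and its sterol regulatory element begins 137 bases before it. Mvd and Nsdhl hold 2 CCAAT matches each, and Cyp51 and Acss2 1 each. Mvk holds 5, more than any other window listed for the 36 genes. Other genes that fell by more than 1 are not shown. Of those with a window, Acat2 and Fads2 held no CCAAT match in these 250 bases. Tm7sf2, Msmo1, Sc5d, Insig1 and Me1 held at least 1 in a window.

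Related genes outside the 36 were counted from lists grouped by role. Each count stands beside 24.7% called lower and 33.7% called higher over all genes tested. Of 19 tested other genes of the sterol and mevalonate routes, 7 were called lower (36.8%), 3 higher and 9 neither. Their median log2 fold change was 0.013. Aacs, which makes acetoacetyl-CoA in the cytosol, averaged 5.91 ± 1.02 in EXO and 16.1 ± 5.66 in LPS, and Npc2, a lysosomal sterol carrier, 104.5 ± 16.0 and 277 ± 65.0. Fntb, a subunit of farnesyltransferase, was higher in EXO, at 5.98 ± 0.538 against 3.38 ± 0.417. Of 14 genes of SREBP maturation and of sterol-regulated degradation, 2 fell (14.3%), 2 rose and 10 were not called. Both called shares were smaller than those over all genes. The ubiquitin ligase Rnf145 fell (log2 fold change -1.003), while Nfyb, a subunit of NF-Y, and Sp1, both transcription factors that act beside SREBP, rose (0.46 and 0.46). The proteases Mbtps1 and Mbtps2, which cut SREBP in the Golgi, were not called, at 11.2 and 10.3 FPKM in EXO and 9.60 and 10.4 FPKM in LPS.

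Of 26 tested other genes of fatty acid and glycerolipid synthesis, 15 were called lower (57.7%), 6 higher and 5 neither. Over all genes tested, 24.7% were called lower and 33.7% higher. The median log2 fold change of the list was -0.41. Idh1, which makes cytosolic NADPH, averaged 46.4 ± 1.90 in EXO and 150.2 ± 12.2 in LPS, and G6pdx, which feeds NADPH from the pentose phosphate route, 100.2 ± 12.3 and 198 ± 21.0. Cyb5a, the electron carrier of the desaturases, fell by 1.83 on the log2 scale, and Acsl1, an acyl-CoA synthetase, fell by 1.68. Of 12 tested genes of oxysterol, LXR and cholesterol efflux, 10 fell (83.3%) and 2 rose, with a median of -0.92. Plin2, a lipid droplet coat protein, averaged 26.4 ± 2.25 and 104.2 ± 13.5, and Lipa, the lysosomal acid lipase, 38.1 ± 7.31 and 118 ± 9.32. The LXR targets Abcg1, a sterol exporter, and Mylip, a ubiquitin ligase, fell by 1.74 and 1.07 on the log2 scale. Of the 36 genes, Srebf1, Scd1 and Scd2 are also known LXR targets.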

How the data were processed

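Per the labels, total RNA was sequenced from 4 EXO and 4 LPS libraries. The deposited table holds 1 value per gene and library whose header names no unit. It was read as FPKM made by the authors, as earlier results of these data describe it. Each library's values are whole multiples of 1 step per gene, which alone does not name the unit. Fragment counts recovered from these steps lay within 0.0012 of whole numbers for all 17645 detected genes (tolerance 0.01). Their totals followed the relative depth of the libraries in the steps, with a largest relative gap of 0.0005. They are the smallest counts the values allow, so totals may be slightly low. HISAT2 and GRCm39 are named in the submitters' processing notes. No source used here gives strand, gene model or counting.

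Here, log2(FPKM + 1) was fitted with limma 3.58.1 (R 4.3.3, trended and robust variance) for 9812 genes with at least 1 FPKM in 4 libraries. P-values were adjusted by Benjamini-Hochberg over all of them, since the deposited table has no p-value of its own. A fold change on this scale understates low genes. The fit was tested on simulated data that gave every gene the same spread setting in both groups. In the data most of the 36 genes spread more widely in LPS than in EXO, a case the simulation did not cover. The 36 genes and the lists were chosen with earlier results of these data known. Every member is named. Values by library are given for the 3 called genes with the widest change per role, all regulators and the uncalled gene with the widest gap per role, and up to 4 genes per other list are named by smallest p. Some genes of the lists are not reported here. Alternatives changed the pseudocount (0.1), filter, scaling, test, replicate block and libraries. Recovered totals and spread set the precision of each value.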

Additional observations from a re-analysis of the deposited data

Results flagged for a closer look

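Msmo1, the C-4 methylsterol oxidase, stood at 44.5 FPKM in EXO replicate 1, far from the other EXO libraries at 33.4 to 34.8 FPKM. It is the single sample that lay apart by Dixon's test among 72 sets of 4 libraries screened (36 genes in 2 groups), where chance marks about 1 in 20 sets. The gene fell with and without that library.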

How the results depend on the processing

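Of the 36 genes, 30 were lower in EXO, and 26 to 33 were under the alternatives run (26 to 31 when a single library was left out), while 1 was higher under each. Over all genes tested, the share called lower ran from 15.9% without a filter on low values to 28.7% under median-of-ratios rescaling. Those settings called 26 and 33 of the 36 genes lower. The share of all genes called higher ran from 18.9% to 38%. The median log2 fold change of the 36 genes ran from -0.91 to -0.65. Between genes and alternatives, 523 of 574 values kept direction and call, 33 lost the call, 8 gained it and 10 changed sign, all of Mvk or Srebf2, which were not called. Leaving out a single library gave Mvk from -0.25 to 0.072 and Srebf2 from -0.11 to 0.16. Without EXO replicate 2 and LPS replicate 4 they were 0.19 and 0.14, and without LPS replicates 1 and 4 (chosen after seeing the data) Srebf2 was 0.14. The cause was not tested. The replicate number, as a block, gave 29 lower genes and lost Elovl5. Same-numbered libraries did not deviate together (correlations 0.045, 0.17, -0.29 and -0.11), and not every library correlated best with its own number, so the numbers were not taken as a pairing. Without a filter on low values Sqle, Lss, Hsd17b7 and Elovl5 lost their calls, and with a pseudocount of 0.1 or voom on recovered fragment counts Lss did. Voom also called Acaca. Median-of-ratios rescaling called Acly, Acaca and Elovl1, and moved the median of all genes from 0.085 to 0.023. Tm7sf2 and Acss2 rest on the fewest fragments named.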
